A study of Mus musculus with 22 samples.

Results

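Sustentacular cells are the supporting epithelial cells of the olfactory epithelium (OE). Here they were the cells in which the transcripts of Cyp2g1, Cyp2a5 and Sec14l3 together made up at least 0.5% of all UMIs (unique molecular identifiers, which count captured RNA molecules) and the neutrophil transcripts S100a8 and S100a9 less than 5%. This rule took 2187 of the 25185 cells that passed a minimum of 500 genes and 1500 UMIs and a limit of 20% on mitochondrial transcripts. Single-cell RNA-seq (scRNA-seq) was run on whole OE from 4 wild-type (WT, Upf3b+/y) and 4 Upf3b-null (Upf3b-/y) C57BL/6J male mice aged 7 to 8 weeks, 1 mouse per library. RNA-seq was run on sorted mature olfactory sensory neurons (mOSNs) from 4 Upf3b+/y and 4 Upf3b-/y pools, all carrying Omp-Cre and R26-eYFP, and ribosome-bound RNA was sequenced from 3 Upf3b+/y and 3 Upf3b-/y pools, all carrying Omp-Cre and RiboTag. Each pool held 3 C57BL/6J males aged 8 to 9 weeks. Omp-Cre acts in cells that switch on the mOSN gene Omp, so eYFP and the tagged ribosome mark mOSNs and not sustentacular cells. GEO's labels give the null genotype as Upf3b-/-, and the gene is on chromosome X.

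Sustentacular cells span the OE from its surface to its base and wrap the dendrites of the olfactory neurons. They are known for very high levels of xenobiotic-metabolizing enzymes: phase I enzymes such as cytochromes P450 oxidize inhaled chemicals, and phase II enzymes such as glutathione S-transferases conjugate the products. UPF3B is a branch-specific factor of nonsense-mediated RNA decay (NMD), a pathway that degrades a subset of normal transcripts as well as those with premature stop codons.

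The sustentacular cells came from all 8 mice. WT mice 1 to 4 gave 165, 106, 242 and 350 of them, and Upf3b-null mice 1 to 4 gave 874, 40, 124 and 286. The UMIs summed over these cells ranged from 213679 in null 2 to 4808973 in null 1, so null 2 was the least precise library. Their median depth per cell lay between 3957.5 UMIs in WT 2 and 6229 in WT 3. Libraries shared few cell barcodes, at most 55 between null 1 and null 4, which held 7157 and 5837 cells. WT 3 held about as many of the cells just under the threshold as all other mice together. Between 0.4% and 0.5% there were 230 cells, 116 of them from WT 3, and between 0.5% and 0.6% there were 152 cells, 43 from WT 3 and 54 from null 1.

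RNA of sustentacular genes was also present in other cells. In mOSN-like cells (Omp, Gng13 and Stoml3 at 0.5% of UMIs or more) the 3 rule genes took 0.197% of UMIs in WT 3, 0.0630% in WT 4, and between 0.00259% and 0.0449% in the other 6 mice. WT 3 therefore stood apart. The share of cells, the median UMIs, the numbers of genes called and the interaction count were recomputed without it, and the other values were not. Conversely, 25.2% of the sustentacular cells of WT 3 also held the 3 mOSN markers at 0.5% or more, against 1.82% to 8.35% in the other mice. No doublet caller was run, and cells over 20000 UMIs numbered 0 to 11 per mouse.

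The label was checked against marker genes. Of 24 sustentacular markers, all were in the matrices, 20 reached 100 UMIs per 1000000 UMIs (CPM) in WT sustentacular cells, and all 20 of these were at least 4-fold higher there than in WT mOSN-like cells. Among all genes at that level, 293 of 1558, or 18.8%, were. The list contains the rule genes and the 100 CPM limit was set on the sustentacular level itself, here and for the lists below, so such counts are a description and support nothing. Over all 24 markers, 22 were at least 4-fold higher. Folds between cell classes have 5 CPM added to each level, which understates those of low genes. A large set of the cells also held gland or respiratory markers, described further on.

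The rule genes had these levels, given for description since they chose the cells. Cyp2g1 encodes an olfactory-specific cytochrome P450 and lies on chromosome 7 from 26808892 to 26821205 (GRCm38). Its level was 9277, 8911, 8588 and 6561 CPM in WT 1 to 4 and 7217, 7825, 8937 and 6559 in null 1 to 4. Cyp2a5, a cytochrome P450 that oxidizes coumarin and nicotine, lies on the same chromosome from 26835305 to 26843548 and had 8442 ± 1856 CPM in WT mice and 8123 ± 2276 in null mice (SD, n = 4 each). Its near-identical neighbour Cyp2a4 can share reads with it, so the level of Cyp2a5 is uncertain to that extent. Sec14l3, a lipid-binding protein gene that is also a ciliated-cell marker, on chromosome 11 (4064841 to 4077736), had 1607, 1760, 3959 and 3956 CPM in WT mice and 1409, 1048, 2512 and 3193 in null mice. Cyp2g1 ranged from 6559 to 9277 and Cyp2a5 from 5882 to 10974 CPM over the 8 mice, and Sec14l3 was highest in WT 3, WT 4 and null 4. Reduced to 1500 UMIs per cell, 97.9% of sustentacular cells held a Cyp2g1 UMI, against 22.97% of mOSN-like cells and 16.3% of the cells with at least 5% of S100a8 and S100a9. The share in mOSN-like cells differed by library, with 68.5% in WT 3, 29.2% in WT 4, and 1.19% (null 2) to 24.7% (null 3) in the other 6 mice, so the pooled value gives no single level of free RNA. Without the reduction to 1500 UMIs the 3 pooled shares were 99.0%, 31.6% and 28.8%.

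Short stretches upstream of 3 of the 4 genes with the highest ratio to other cells are shown because the letters before their starts differ. Cyp2a5 and Sec14l3 are rule genes, so their place in that ranking was set by the choice of cells. They run from 40 to 11 bases before the start of the gene in RefSeq (GRCm38.p6), 5′ to 3′ on the gene's strand, and capitals mark the letters TATAAA, searched on both strands. The gene coordinates printed here are from GENCODE, whose starts for these 3 genes lie upstream of the RefSeq starts, so that the windows lie wholly or partly inside the GENCODE genes.
Cyp2a5, chr7:26835299-26835328, plus strand: gtctctggatgTATAAAagcaagctaattc
Cyp1a2, chr9:57683666-57683695, minus strand: gtgggtggtgtTATAAAaggcccctcgtcg
Sec14l3, chr11:4064813-4064842, plus strand: ctaaagagttgtcccaggggaggcgcctga
TATAAA began at position -29 in both cytochrome genes, and Sec14l3 had no match in this window or elsewhere in the 300 bases searched. Of all 32544 promoters of that length, 13.6% held the letters somewhere and 2.66% held them in the same 30-base window. Cyp2g1 was the fourth of these genes.

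The 20 genes with the highest ratio of WT sustentacular cells over all other WT cells (5 CPM added to each, at least 100 in sustentacular cells) were led by Sec14l3 at 39.96-fold, Cyp2g1 at 36.7-fold, Cyp1a2 at 34.8-fold and Cyp2a5 at 26.5-fold. Sec14l3, Cyp2g1 and Cyp2a5 are the rule genes that chose the cells, so their ratios are a description. Cyp1a2, which oxidizes aromatic amines, had 749.1 ± 206 CPM in WT sustentacular cells and 16.6 in other WT cells. Pon1, an esterase and lactonase gene, had 987.8 ± 431 against 35.9 (24.3-fold). Il33, an alarmin cytokine gene, had 595.3 ± 36.1 against 22.7 (21.7-fold), and was among the most even of these genes between WT mice. Gchfr, the feedback regulator of GTP cyclohydrolase, stood at 21.5-fold, the gliomedin gene Gldn at 21.2-fold, the potassium channel gene Kcnj5 at 17.8-fold, and Galm, an enzyme of galactose breakdown, at 16.6-fold. The remaining leading genes were AU021092, Msln, Muc2, Dcpp3, Agr2, Abca13, Svopl, Cpm, Chil6 and Dcpp1, with ratios from 15.9 to 24.6. Not all of these describe every kind of cell under the rule. Dcpp3, Dcpp1 and Chil6 had 5344, 462.2 and 1871 CPM in the cells that held Msln, described further on. In the cells that held Muc2 they had 13.9, 2.46 and 42.3 CPM.

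**Figure D1:**
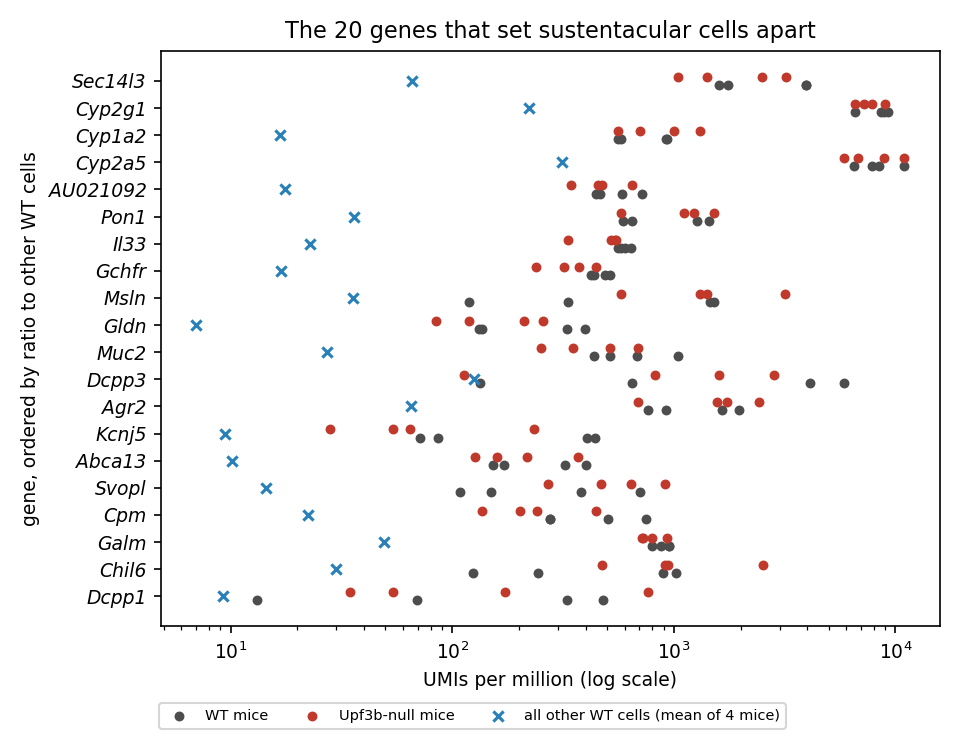
Levels in CPM (horizontal log axis) of the 20 genes with the highest ratio to other WT cells, with 1 point for the summed sustentacular cells of each WT and each Upf3b-null mouse and a cross for all other WT cells. Cyp2g1 stays between 6559 and 9277 in the 8 mice, whereas Dcpp3 runs from 113.7 to 5833. Dcpp3, Dcpp1 and Chil6 were high in the cells that held Msln and low in those that held Muc2.

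By level alone, and with mitochondrial genes set apart, the most abundant transcript was the nuclear noncoding RNA Malat1 (30979 CPM, mean of 4 WT mice), followed by the secretoglobin gene Scgb1c1 (9252), Cyp2a5, Cyp2g1, Wfdc18 (6978), Tmsb4x (6736) and the carbonyl reductase gene Cbr2 (6005). Scgb1c1 and Wfdc18 came largely from the cells that held Msln, described further on, with 22224 and 20275 CPM there. In the cells that held Muc2 they had 3787 and 449.8 CPM. The glutathione S-transferase gene Gstm1 reached 4582 ± 928, the metallothionein gene Mt1 3815 ± 1871 and the peroxiredoxin gene Prdx1 3355.

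Detoxification enzymes are given next. The 42 phase I genes together had 37099 ± 4298 CPM in WT sustentacular cells (SD, n = 4) and 2337 in WT mOSN-like cells. Of these genes, 19 reached 100 CPM and 17 of the 19 were at least 4-fold higher than in mOSN-like cells, beside 18.8% of all genes at that level. Over all 42 the count was 23. The list includes the rule genes Cyp2g1 and Cyp2a5, which chose the cells. The other 40 genes had 20323 ± 1401 CPM against 1758, and 15 of the 17 that reached 100 CPM were at least 4-fold higher. The 38 phase II genes together had 11082 ± 1814 against 2854, led by Gstm1, with 9 of the 10 that reached 100 CPM, and 12 of all 38, at least 4-fold higher. Ugt1a6b, Ugt2a3, Ugt2b34 and Sult1c2 had no UMI in any sustentacular cell. Among glutathione and redox genes, led by Mt1, 2 of the 12 that reached 100 CPM (16.7%) passed 4-fold, near the 18.8% of all genes at that level. Of all 23, 2 did. Over all genes in the matrices, at any level, 684 of 27998 were at least 4-fold higher.

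Genes of the Notch pathway and of epithelial identity were next. Notch signalling between neighbouring cells is known to hold sustentacular cells in their fate, with NOTCH2 as a receptor and HES1 as a transcriptional target. Among the 27 genes on this list, 12 were at least 4-fold higher than in mOSN-like cells, and these included all 7 that reached 100 CPM, beside 18.8% of all genes at that level. Hes1 led with 401.0 ± 95.7 CPM in WT mice (15.95-fold over mOSN-like cells), Sox2 had 271.4 ± 73.0 (10.6-fold) and Notch2 92.2 ± 6.76 (8.08-fold). The keratin gene Krt18, typical of simple epithelia, had 1717 and led the junction, keratin and apical structure genes, of which 11 of 28 passed 4-fold, 8 of them among the 14 that reached 100 CPM. Ermn, an ERM-like actin-binding protein gene, had 528.2 ± 34.0 and was found in 51.3% of cells reduced to 1500 UMIs, against 2.91% of mOSN-like cells.

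The transmembrane serine protease gene Tmprss2 had 56.5, 70.8, 95.02 and 56.7 CPM in WT mice and was found in 8.32% of sustentacular cells against 0.478% of mOSN-like cells at 1500 UMIs. WT 3 had the highest level of the 4.

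The cells that met the rule were not uniform. The expression of each gene was compared among the sustentacular cells of 1 mouse at 1500 UMIs per cell, as the ratio of variance to mean, and averaged over the mice. Among 1069 genes with a mean of at least 0.2 UMIs the median ratio was 1.08. Bpifa1, a secreted antimicrobial protein gene of airway glands, had the highest ratio at 172, with 0.897 in one mouse and 438 in another, so that it was carried by few cells in some mice. Wfdc18 followed at 70.1, Dcpp3 at 62.6 and Scgb1c1 at 43.6. These are secreted protein genes, as are Obp1b (28.7), Reg3g (21.9) and Ltf (13.96) further down. Haemoglobin genes were also among the 20, with Hbb-bs at 23.997. Of the rule genes, only Cyp2a5 was among the 20 (7.83).

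The cells were next divided by Muc2 and Msln, a pair chosen after the values were seen. Muc2 encodes a gel-forming mucin and Msln mesothelin, a surface protein of some epithelia. At 1500 UMIs per cell, 914 cells (41.8%) held Muc2 but no Msln, 645 (29.5%) held Msln but no Muc2, 36 (1.65%) held both and 592 (27.1%) held neither. The cells with Muc2 alone had a median of 2.08% of rule-gene UMIs and those with Msln alone 1.07%. Since the rule sums these genes, a stricter threshold keeps relatively more of the former.

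In the 7 mice with at least 10 cells of each kind, which leaves out null 2, the Msln cells were higher for a consistent set of genes in every mouse. The demilune protein gene Dcpp3 differed by -7.31 on the log2 scale (Muc2 cells over Msln cells, 20 CPM added), with mouse values from -9.29 to -4.07. Rgs5 differed by -6.25 and had 18703 CPM in Msln cells against 225.2 in Muc2 cells. Wfdc18 differed by -5.43, Chil6 by -4.92, the lactoferrin gene Ltf by -4.83, Vmo1 by -4.28 and the chemokine gene Cxcl17 by -4.05. Sox9, a transcription factor gene known in Bowman's glands, had 349.7 ± 88.5 CPM in Msln cells and 17.9 ± 8.02 in Muc2 cells (SD, n = 7 mice), and the water channel gene Aqp5 had 1201 against 344.3. Bpifa1, the most variable gene, did not follow the division: it was higher in Muc2 cells in 5 of 7 mice, with mouse values from -5.43 to 1.85.

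The Muc2 cells were higher for Sec14l3 (3644 ± 920 against 233.8 ± 225 CPM), Cbr2 (7686 against 723.3), Gstm1 (5255 ± 1298 against 969.3 ± 307), the carboxypeptidase gene Cpm, the cadherin gene Cdh26 and the retinoid-binding protein gene Crabp2. Sox2 had 332.1 ± 67.9 in Muc2 cells and 20.99 ± 20.7 in Msln cells, and Tmprss2 had 101.8 ± 22.5 and 11.2 ± 6.19. Cyp2g1 (9867 ± 1739 against 6003 ± 1342), Cyp2a5, Cyp1a2 and Ermn (560.5 ± 80.7 against 425.01 ± 84.97) differed by 0.72, 0.73, -0.31 and 0.38 on the log2 scale. Sustentacular markers without Muc2 and Msln summed to 48440 ± 7292 in Muc2 cells and 24601 ± 3606 in Msln cells. Gland or respiratory markers summed to 5299 ± 1322 and 34265 ± 12165 (SD, n = 7 mice). Both sums rest on few genes. Without the 3 rule genes, which chose all the cells, the sustentacular markers summed to 24697 ± 3197 in Muc2 cells and 12218 ± 1629 in Msln cells. Without Scgb1c1, which had 22224 CPM in Msln cells and was found in 57.0% of mOSN-like cells at 1500 UMIs, the gland or respiratory markers summed to 1513 ± 806 and 12041 ± 8726. In Msln cells the gland or respiratory sum thus exceeded the sustentacular sum with all genes counted. Without the rule genes and Scgb1c1 these sums were 12041 and 12218. Sec14l3 and Sox2 were low and Sox9 was high. The sustentacular markers Krt18 (2510 against 1466 CPM in Muc2 cells) and Krt8 (1453 against 672.6) were higher in Msln cells in all 7 mice. The means of Hes1 and Sult1c1 were also higher there. These cells thus meet the rule, but several of their markers go against the label. They stay counted as sustentacular cells in the shares and in the expression results here, except where a value without them is given.

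The cells with neither transcript resembled the Muc2 cells for Sec14l3 (3178 ± 762), Gstm1 (5858 ± 872) and Sox2 (282.1 ± 63.9). They had the highest Bpifa1 (6792 ± 10753), with an SD above the mean. The neuronal genes Gap43, Calb2, Stmn2 and Ncam1 were among the 12 genes most raised in them, and mOSN markers summed to 3202 ± 1551 CPM against 2507 ± 839 in Muc2 cells.

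**Figure D2:**
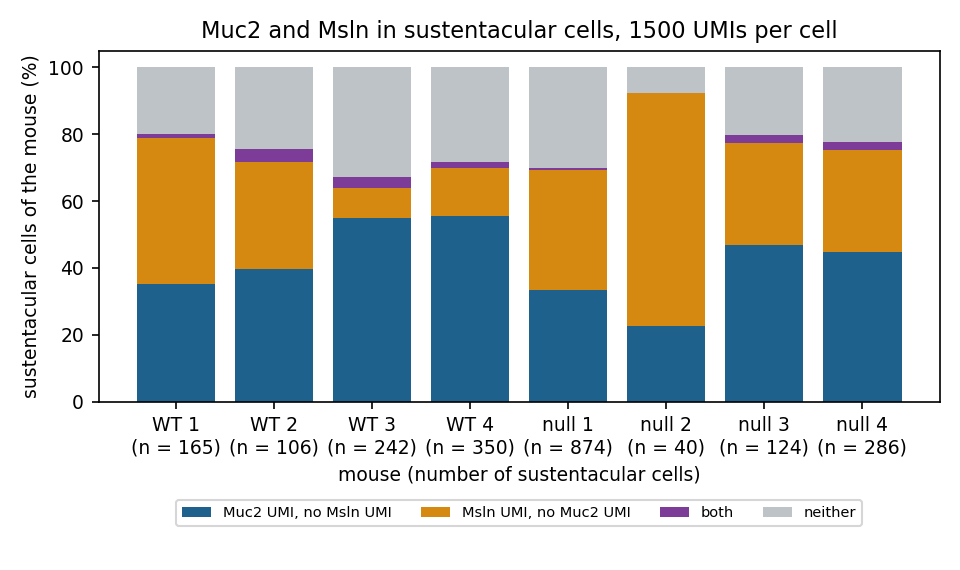
Share of each mouse's sustentacular cells (vertical axis, percent) that held a Muc2 UMI, an Msln UMI, both or neither at 1500 UMIs per cell. Cells with Muc2 alone make up 55.0% and 55.4% in WT 3 and WT 4, and Msln alone makes up 28 of the 40 cells of null 2.

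The division varied between mice. Muc2 alone was found in 35.2%, 39.6%, 55.0% and 55.4% of the sustentacular cells of WT 1 to 4 and in 33.4%, 22.5%, 46.8% and 44.8% of those of null 1 to 4. Msln alone was found in 43.6%, 32.1%, 9.09% and 14.6% in WT mice and in 35.8%, 30.6% and 30.4% in null 1, 3 and 4, and in 28 of the 40 cells of null 2. The genotypes overlapped for both.

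A set of 3 libraries also stood apart across genes. WT 3, WT 4 and null 4 correlated with each other at r between 0.949 and 0.966 (log2 CPM, across genes, which are not independent replicates) and with the other 5 at between 0.711 and 0.902. The other 5 were a looser set, in which null 2 correlated with the rest at 0.819 to 0.860. Both sets hold both genotypes, and the labels name no batch. Gm42418, which overlaps ribosomal RNA, had between 2264 and 4211 CPM in the first 3 and between 53.1 and 181 in the other 5. The hexokinase gene Hk2 had 484.5 to 621.4 against 79.6 to 159, Kcnj5 234.0 to 440.7 against 28.1 to 86.7, and the odorant-binding protein gene Obp1a 433.4 to 1040 against 13.8 to 32.3. Msln, at 119.4 to 575.8 against 1311 to 3182, was among the genes lower in the first 3, with Vmo1, Aqp5 and Chil6. Of 1883 genes at 100 CPM or more, 1117 did not overlap between the sets, 557 higher and 560 lower in the first 3. The sets were taken from these data, so this is a description with no test.

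The share of sustentacular cells was the first comparison of genotypes. They made up 9.01%, 7.34%, 8.67% and 11.4% of the kept cells in WT 1 to 4, and 12.2%, 2.999%, 7.25% and 4.90% in null 1 to 4. Null 1 had the highest share of the 8 mice and null 2 the lowest, so the genotypes overlapped. The means were 9.10% ± 1.67 in WT and 6.84% ± 3.98 in Upf3b-null mice (SD, n = 4 each), a difference of -2.26 percentage points that did not exceed the spread between mice (p = 0.314, two-sided exact permutation test, smallest possible p 0.0286). The difference was -4.05 points without null 1 and -0.97 points without null 2. Within WT 1, WT 2, null 1, null 2 and null 3 the difference was -0.69 points, and the other set has only 1 null mouse. With a mitochondrial limit of 10% in place of 20% it was -4.79 points and reached that smallest p, so the comparison depends on this limit. The median mitochondrial share of these cells ran from 9.09% in WT 2 to 13.2% in WT 3. A limit of 10% thus drops a large part of them, to a different extent by mouse.

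**Figure D3:**
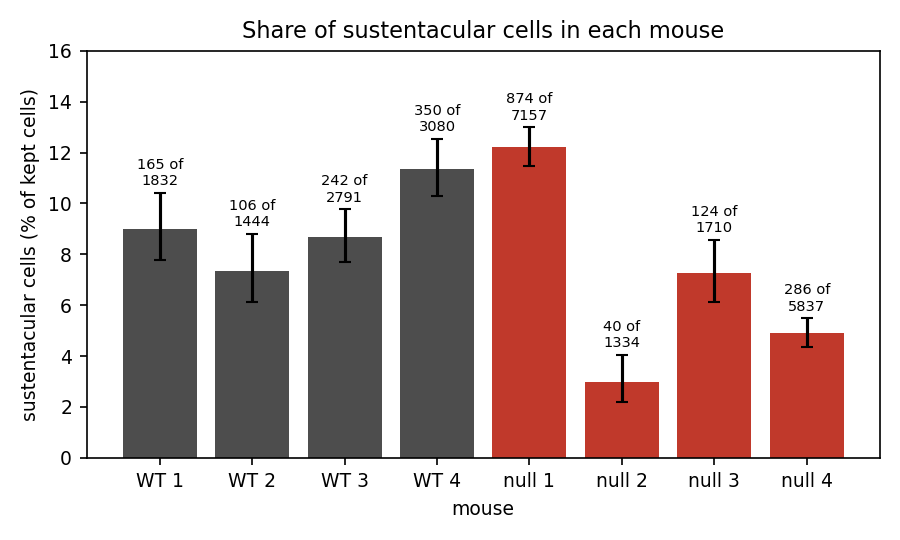
Share of kept cells that met the sustentacular rule (vertical axis, percent, from 0) in each mouse, with Wilson 95% intervals that cover counting error only and cell numbers above the bars. Null 1 at 12.2% and null 2 at 2.999% enclose all other mice.

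The depth of the cells overlapped between the genotypes. The median number of UMIs per sustentacular cell was 4855 ± 1010 in WT and 4690.5 ± 389 in Upf3b-null mice (SD, n = 4 each, p = 0.886, two-sided exact permutation test). Median genes per cell were 2026 ± 422 and 1912.5 ± 150 (p = 0.714, exact permutation test), and median mitochondrial UMIs 10.6% ± 1.84 and 11.4% ± 1.12 (p = 0.457, exact permutation test). WT 3 had the deepest cells, and without it the sign of the difference in UMIs turned.

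Gene expression in sustentacular cells was then compared between the genotypes on UMIs summed per mouse. Upf3b, on chromosome X from 37091678 to 37110322, was measured first as a check of the labels. Its level was 57.8, 67.2, 76.9 and 84.1 CPM in WT 1 to 4, and 0.416, 0, 4.79 and 2.31 in null 1 to 4. The count of 0 in null 2 allows up to 14.04 CPM. Upf3b thus fell by 5.41 on the log2 scale (standard error 0.52, edgeR's quasi-likelihood test with adjusted p = 0.00161, lower in 4 of 4 null mice than in any WT mouse). Upf3b was the only one of 9432 genes tested with an adjusted p under 0.05, which is 0.0106% of them. An unadjusted p under 0.05 was reached by 182 genes (1.93%), 114 higher and 68 lower. DESeq2 called 2 genes, or 0.0108% of those it tested, Upf3b and Alox5ap. The median standard error over all genes was 0.32 on the log2 scale.

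Apart from Upf3b, no gene difference in these cells thus passed adjustment in edgeR, which does not show that the other genes were unchanged. Some genes are given because their groups did not overlap. Among all tested genes 0.53% were higher in every null mouse than in every WT mouse, and 1.49% were lower. Hes1, the Notch target, had 350.5, 378.6, 333.2 and 541.7 CPM in WT 1 to 4 and 661.1, 608.4, 744.1 and 689.4 in null 1 to 4. Every null mouse lay above every WT mouse. Its log2 fold change of 0.85 (standard error 0.22) had an unadjusted p of 0.00216 and an adjusted p of 1.00 by edgeR's quasi-likelihood test. In mOSN-like cells the log2 fold change of Hes1 was -0.13, and the difference between the classes had an unadjusted p of 0.536 in edgeR's interaction test. Without cells holding an Msln UMI the log2 fold change of Hes1 in sustentacular cells was 0.64 and the groups overlapped. Hes1 was the only one of 21 tested Notch and regulator genes whose groups did not overlap. Notch2 differed by 0.12 on the log2 scale (standard error 0.36), and the median of the list was -0.04, beside -0.01 for all genes tested. Sox2 had a log2 fold change of -0.66 with an unadjusted p of 0.0365 and an adjusted p of 1.00 in the same edgeR test, and its groups overlapped. Without cells holding an Msln UMI it was -0.31 (standard error 0.23, unadjusted p 0.198 in edgeR), and every null mouse lay below every WT mouse.

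Noncoding host genes of small nucleolar RNAs are well known substrates of NMD, because their spliced transcripts carry short reading frames. Of 9 on the list, 3 were in the matrices. Snhg6 had 45.2, 69.0, 55.6 and 46.1 CPM in WT mice and 89.6, 112.3, 77.8 and 100.3 in null mice. Snhg12 had 23.9, 22.997, 26.9 and 34.6 in WT mice and 44.9, 51.5, 39.5 and 42.65 in null mice. In both genes every null mouse lay above every WT mouse. The log2 fold changes were 0.90 (standard error 0.24, unadjusted p 0.00270) for Snhg6 and 0.76 (standard error 0.24, unadjusted p 0.00808) for Snhg12, each with an adjusted p of 1.00 by edgeR's quasi-likelihood test. In Epb41l4aos the change measured was 0.56 (standard error 0.28) and the groups overlapped. Without cells holding an Msln UMI, Snhg6 had 0.81 without overlap, and Snhg12 0.51 with overlap. In mOSN-like cells the log2 fold changes of Snhg6, Snhg12 and Epb41l4aos were 1.54, 1.00 and 0.27. The interaction test of Snhg6 gave -0.63 (standard error 0.22, unadjusted p 0.0145) and did not pass after adjustment.

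**Figure D4:**
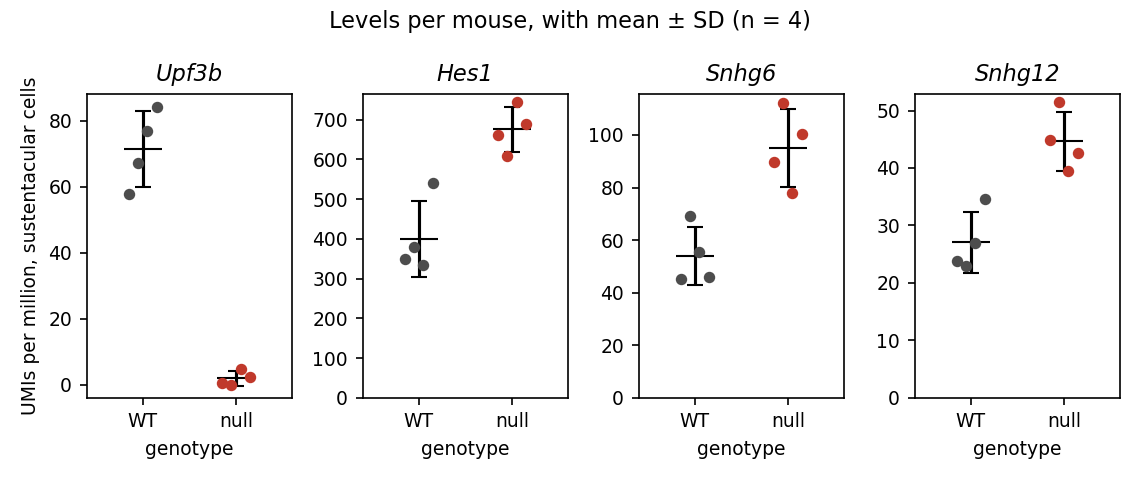
Levels per mouse in sustentacular cells (vertical axes, CPM) of Upf3b, Hes1, Snhg6 and Snhg12, with points for mice and bars for mean ± SD (n = 4). No WT and null point overlap in any of the 4 panels, but only Upf3b passed adjustment over all genes.

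Other NMD factors showed no called change. Of 16 tested, Upf3b alone was called. Upf3a, the paralog of Upf3b, had 35.7 ± 9.26 CPM in WT and 34.6 ± 7.70 in null mice (SD, n = 4 each), a log2 fold change of -0.05 (standard error 0.28). The median of the list was 0.09. Of 11 tested targets of ATF4, a transcription factor of the stress response, none was called, and Atf4 itself had 128.9 ± 9.09 and 157.9 ± 19.1 CPM without overlap (log2 fold change 0.38, unadjusted p 0.106).

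The rule genes Cyp2g1, Cyp2a5 and Sec14l3 are on the next lists, and their values by genotype are a description since they chose the cells. None of the 24 sustentacular markers, 29 tested phase I genes or 22 tested phase II genes was called, and their median log2 fold changes were -0.05, -0.17 and 0.10. Of the phase I genes 9 lay above 0 and 20 below. Without Cyp2g1 and Cyp2a5, the phase I genes summed to 21945, 20047, 20716 and 18582 CPM in WT 1 to 4 and to 16857, 17114, 18137 and 15655 in null 1 to 4. Every null mouse thus lay below every WT mouse, and no test was made on this sum. It includes Cbr2, given below. With Cbr2 taken off as well, null 2 and null 3 lay above WT 4, so the groups overlapped and the separation rested on Cbr2. With all 42 genes the sum was 31659 to 42171 CPM in WT mice and 28096 to 38047 in null mice, with overlap. Cyp2g1 differed by -0.03 on the log2 scale (standard error 0.21), Cyp2a5 0.05 (0.27), Gstm1 -0.27 (0.19) and Ermn 0.02 (0.19). Cbr2 had 6613, 5603, 6534 and 5272 CPM in WT mice and 4384, 3660, 4645 and 4484 in null mice without overlap, with a log2 fold change of -0.39 and an unadjusted p of 0.0521. Aldh1a1, which makes retinoic acid, had 182.0 ± 38.9 and 92.4 ± 44.8 (log2 fold change -0.86, unadjusted p 0.00978). The carboxylesterase gene Ces1f had 20.6 ± 7.33 and 10.2 ± 1.28 without overlap (-0.93, unadjusted p 0.0162). Each of these 3 had an adjusted p of 1.00 by edgeR's quasi-likelihood test. Cells with Msln alone, in which Cbr2 was low, made up 24.8% ± 15.9 of the sustentacular cells in WT and 41.7% ± 19.02 in null mice (SD, n = 4 each) with overlap. Without null 2 the null mean was 32.3%. The part of this cell mix in the differences was not tested. In a fit without cells holding an Msln UMI, chosen after the values were seen, the log2 fold change of Cbr2 was 0.00 (standard error 0.24) with overlap, that of Aldh1a1 was -0.67 with every null mouse below every WT mouse, and that of Ces1f was -0.92 with overlap. Tmprss2 differed by -0.28 (standard error 0.25).

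In the remaining lists no gene was called either. These were junction and keratin genes (26 tested, median log2 fold change 0.12), transport genes (20, -0.10), phagocytosis genes (16, 0.01), glutathione and redox genes (21, 0.06), viral entry factors (6, 0.07), immediate early and dissociation genes (23, 0.29), interferon genes (9, 0.09) and genes of MHC antigen presentation (14, -0.09). Epithelial antimicrobial genes (12 tested) had a median of 0.62, and 4 of them (Lcn2, Lyz2, Slpi and S100a6) had an unadjusted p under 0.05 with a log2 fold change above 0, beside 1.21% of all genes. In the WT cells with at least 5% of S100a8 and S100a9 this list summed to 29781 CPM. In sustentacular cells its summed level had the opposite sign, 5405 ± 3417 CPM in WT and 3292 ± 731 in null mice, led by Bpifa1 (log2 fold change -2.47, standard error 1.27). Immediate early genes are known to respond to tissue dissociation, and 19 of 23 had a log2 fold change above 0. Their summed level of 4259 ± 1485 and 4761 ± 1555 CPM overlapped.

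Markers of neutrophils were present in the same sums. The 16 neutrophil markers summed to 1626, 2087, 2510 and 2416 CPM in the sustentacular cells of WT 1 to 4, and to 3260, 2611, 8059 and 6940 in null 1 to 4, led in WT by Ltf. All null values were above all WT values, and null 3 and null 4 were the highest. The list holds S100a8 and S100a9, which the rule used, and Ltf and Anxa1, which were high in Msln cells. Without these 4 genes the sums were 133.2, 253.0, 448.8 and 494.6 CPM in WT mice and 854.7, 145.1, 2170 and 1454 in null mice, so that null 2 lay among the WT mice and the other 3 null mice above them. Of 15 tested, 10 had an unadjusted p under 0.05 with a log2 fold change above 0, beside 1.21% of all genes, and none was called after adjustment. Their median log2 fold change was 1.74. The same markers summed to 6892 ± 3602 CPM in Msln cells and 2784 ± 2830 in Muc2 cells (SD, n = 7 mice). Of these sums, Ltf made up 2479 and 67.8 CPM and Anxa1 1305 and 78.4. In mOSN-like cells all the markers summed to 2514 in WT and 4860 in null mice. Alox5ap, called by DESeq2 (5.02, 21.2, 6.25 and 11.1 CPM in WT, 36.2, 51.5, 47.9 and 30.6 in null mice), had 177.8 in other WT cells. Erythroid markers summed to 3353 ± 4669 and 7517 ± 8158, highest in null 3, led by Hbb-bs. Immature OSN markers had log2 fold changes below 0 in 9 of 9 genes (median -0.53), with none at an unadjusted p under 0.05, and mOSN markers summed to 2345 ± 1388 and 2069 ± 1153. For gland or respiratory markers (14 tested) the median was 0.63, and for those of globose basal (6), horizontal basal (3), ciliated (5), microvillous (5), ensheathing glia (4), macrophage (3) and stromal cells (5) it was 0.32, -0.33, 0.05, -0.44, -0.21, 0.18 and -0.17, with none called. Cd79a of B cells and Krt5 of horizontal basal cells were too low to be tested. The part of these markers in the differences above was not tested.

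The number of genes called depended on how the libraries were grouped. The replicate block moved it to 6, with the genes given in the closing section. With the library set as a term, a choice made after the sets were seen, 6 genes passed: Upf3b, Alox5ap, Arhgdib, Ifitm6, Mmp8 and Erdr1. Ifitm6 and Mmp8 are neutrophil genes, and Arhgdib is a leukocyte gene with 329.4 CPM in other WT cells against 28.8 ± 3.19 in WT sustentacular cells. Erdr1 had 73.4 ± 13.7 in WT and 23.99 ± 13.2 in null mice. Among WT 1, WT 2, null 1, null 2 and null 3 alone, only Upf3b passed. Without null 4, Rnaset2a and Gm6133 passed beside Upf3b.

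The difference between the genotypes was also compared between sustentacular and mOSN-like cells of the same mice. Of 12041 genes none passed the interaction test after adjustment (0% of those tested), and 157 (1.3%) had an unadjusted p under 0.05 by edgeR's quasi-likelihood test. Upf3b was at or near 0 in the null mice in both classes, so the sizes of its folds are not compared.

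Transcripts of the cells that met the rule were finally followed in the mOSN-enriched bulk libraries. In such mixtures, fewer cells of a type and less RNA per cell cannot be told apart. The 50 genes with the highest ratio of WT sustentacular over WT mOSN-like cells were used, led by Dcpp3, Sec14l3, Cyp1a2, Msln and Cyp2g1. The list mixes the kinds of cells: Dcpp3, Rgs5, Chil6 and Vmo1 were higher in Msln cells, several of whose markers go against the label. Of the 50 genes, 44 had at least 1 transcript in the count tables. In the RNA-seq of sorted mOSNs, 67 transcripts of these genes summed to 2090, 2005, 2091 and 2428 CPM in WT libraries 1 to 4 and to 1649, 4395, 5592 and 5619 in Upf3b-null libraries 1 to 4. Null library 1 lay under every WT library, and null libraries 2 to 4 lay above every WT library.

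Of the 36 transcripts tested, 35 had a log2 fold change above 0, with a median of 1.25 beside 0.04 for all 11560 transcripts. An unadjusted p under 0.05 was reached by 29, all higher in null libraries, beside 8.62% of all transcripts, but none passed adjustment in edgeR's quasi-likelihood test (0.0606% of all were called higher). DESeq2 called 10, beside 0.874% of all. Without null library 1, edgeR called 29 higher, beside 2.83% of all, so this 1 library decided the count. Cyp2g1 had 261.8, 278.6, 301.9 and 417.5 CPM in WT and 213.7, 622.6, 762.1 and 1019 CPM in null libraries (log2 fold change 1.02, standard error 0.38, adjusted p = 0.319 by edgeR). Null libraries 2 to 4 also lay above every WT library for Sec14l3 (log2 fold change 1.00), Cyp2f2 (1.19), Aox2 (1.42), Galm (1.28) and Tst (0.61). They did not for Cyp2a5 (0.07), Rgs5 (0.75), Chil6 (0.15) or Vmo1 (-0.23). Rgs5, Chil6 and Vmo1 were higher in Msln cells, whereas Sec14l3, Aox2 and Cyp2a5 were higher in Muc2 cells. The bulk values did not follow this division throughout. Msln itself (1.36) and Aqp5 (0.81), also higher in Msln cells, lay above every WT library in null libraries 2 to 4. Dcpp3 (0.88), another gene of the Msln cells, did not. Sorting took place on 2 days that are not given by library, so an effect of the day cannot be told apart from the others here.

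In the RiboTag RNA the same 67 transcripts summed to 4697, 4859 and 4409 CPM in WT and 4021, 4443 and 4602 CPM in Upf3b-null libraries, so the groups overlapped. Of 41 transcripts tested, 15 had a log2 fold change above 0 and 26 below, with a median of -0.07. None passed an adjusted or an unadjusted p of 0.05 in edgeR (0% of all 14216 passed adjustment), and DESeq2 called none, beside 0.0609% of all called higher. None was called without null library 3 either, beside 0.0787% of all. In 8 transcripts every null library lay below every WT library, beside 3.27% of all. Cyp2g1 was 1 of them, with a log2 fold change of -0.23 (standard error 0.15), and that of Aox2 was -0.12 with overlap.

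**Figure D5:**
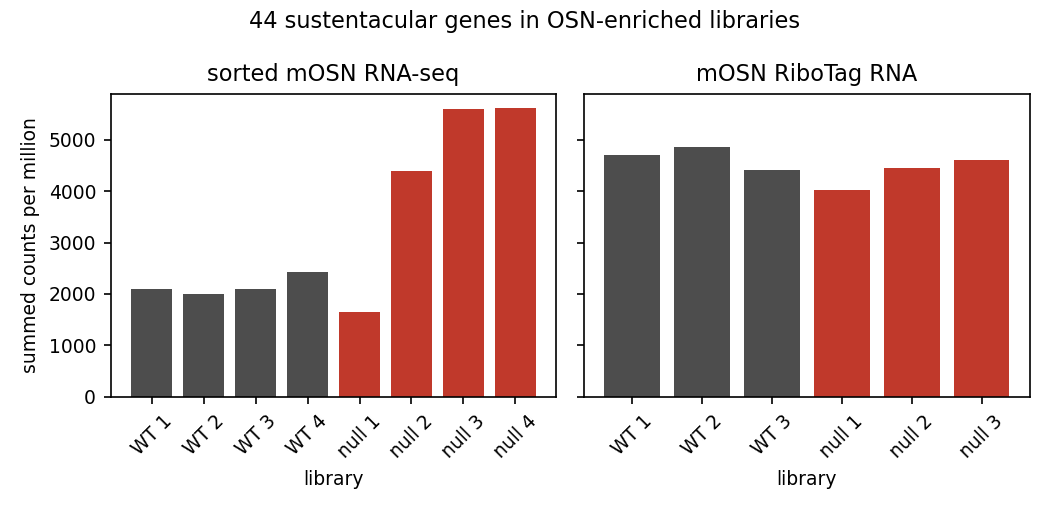
Summed CPM (vertical axis, shared) of the 44 genes of the sustentacular list in sorted mOSN RNA-seq (left) and mOSN RiboTag RNA (right), by library. Some of these genes were higher in Msln cells. Null libraries 2 to 4 of the RNA-seq stand at 4395 to 5619 above all WT libraries, while null library 1 and all RiboTag null libraries do not.

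A list of 52 candidate NMD targets comes from the methods and tables of the work on the same sorted mOSN RNA-seq, and 49 of them were in the single-cell matrices. Of these, 21 were at least 4-fold higher in WT sustentacular cells than in WT mOSN-like cells, and these included all 11 that reached 100 CPM in sustentacular cells, beside 18.8% of all genes at that level. As that limit was set on the sustentacular level, the count is a description. Aox2 had 1216 ± 494 CPM against 65.2, Ermn 528.2 ± 34.0 against 22.4, Hk2 327.0 against 12.3, Fmo2 270.0 against 12.2 and Gldn 249.3 against 8.55. In sustentacular cells themselves, 37 of the candidates were tested and none was called between genotypes. Their median log2 fold change was -0.24 (12 above 0 and 25 below) beside -0.01 for all genes. The list summed to 6034, 5536 and 5227 CPM in WT 3, WT 4 and null 4, the set of libraries that stood apart. In WT 1, WT 2, null 1, null 2 and null 3 it summed to 2410 to 3492. The part of this set in the median was not tested. Aox2 had -0.52 (standard error 0.34) and Ermn 0.02. In the sorted mOSN RNA-seq the log2 fold changes of Aox2, Ermn, Hk2, Fmo2 and Gldn were 1.42, 1.74, 2.35, 2.06 and 2.20, none with an adjusted p under 0.05 in edgeR. DESeq2 called all 5, with adjusted p from 0.00617 (Ermn) to 0.0486 (Gldn), and edgeR without null library 1 called all 5, with adjusted p from 0.00125 (Fmo2) to 0.0150 (Gldn). The list was chosen on those RNA-seq libraries, so their direction there is not independent evidence. How much of it came from sustentacular RNA was not tested.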

How the data were processed

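The scRNA-seq matrices deposited by the authors hold unnormalized UMI counts (Cell Ranger 2.0, mm10). For the bulk assays they deposited raw counts per Ensembl transcript (STAR 2.5.2b, GRCm38, featureCounts). Doublets were not removed here. Cells, marker lists and gene lists were chosen with earlier results of these data known. UMIs were summed per mouse and class and scaled to 1000000 (CPM). Depth in kept cells was 4357078 to 27140982 UMIs per mouse. In the bulk tables depth was 1216784 to 7542665 counts per library, and 3 counts were taken as the floor. Intervals and floors cover counting error only. That libraries were separate mice comes from the methods.

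Sums were tested with edgeR 4.0.16 (TMM, filterByExpr, robust quasi-likelihood fit) in R 4.3.3, with Benjamini-Hochberg adjustment over all features. DESeq2 1.42.0 was the alternative. The interaction fit had mouse as a block. Single values were compared by exact permutation of the 8 mice (70 splits). Cells were thinned with numpy 2.4.6. Scripts were tested on simulated data. Named were Upf3b, Upf3a, the rule genes, Gstm1, Notch2, Ermn and Tmprss2, the 20 genes with the highest ratio and the 10 most abundant, called genes, up to 4 genes per list by smallest p, the 20 most variable genes and up to 8 abundant sustentacular genes in bulk. A further gene under this rule is not reported here. Other names were chosen after their values were seen. Of the listed genes, 11 had no row in the matrices.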

Additional observations from a re-analysis of the deposited data

Results flagged for a closer look

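In 3 of the groups of 4 mice that were compared for shares, depth, named genes and marker sums, 1 mouse lay further from its neighbour than Dixon's 95% limit of 0.829 allows. Chance flags about 1 in 20 such groups, and 108 groups were examined. Levels are in CPM, UMIs per 1000000. Upf3a in the sustentacular cells of WT 4 had 49.5 CPM, against 30.1 to 32.7 in the other WT mice. ATF4 stress targets summed to 1114 CPM in null 2, which has 40 sustentacular cells, against 927.2 to 958.5 in the other null mice. Ensheathing glia markers summed to 353.8 CPM in WT 2, against 62.5 to 110.6 in the other WT mice, and Fabp7 led them there with 219.4.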

How the results depend on the processing

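The share of sustentacular cells kept its direction under all 14 alternatives (-4.05 to -0.97 points when 1 mouse was left out), and only the mitochondrial limit of 10% made it pass (-4.79 points, exact permutation test). The difference in median UMIs per cell, not past its test under any alternative, reversed with that limit (526.1) and without WT 3 (293.3), and ranged from -463.8 to 293.3 when 1 mouse was left out. The count of 1 gene called in sustentacular cells was 2 with DESeq2, 6 with the replicate block, 6 with the library set as a term, and 1 to 3 when 1 mouse was left out, 3 without null 4, and Upf3b was called each time. It stayed 1 under the remaining 10 alternatives, 3 of which also leave out mice (at least 50 cells per mouse drops null 2). The replicate block added Alox5ap, Hbb-bt, Gm8730, Wfdc21 and Ly6c2, but same-numbered mice share only a number: their deviations correlated at 0.11, 0.27, 0.06 and 0.65, and WT 1 correlated best with null 2. The share and the median UMIs in the paired form gave -2.26 points and -164.6. Pairing cannot change these values in groups of equal size, so this alternative says nothing about their direction. Neither passed its test in the paired form. The interaction count was 0 throughout. In sorted mOSN RNA-seq the count of sustentacular transcripts called was 10 with DESeq2, 0 with the replicate block, and 0 to 29 when 1 library was left out, 29 without null library 1. In RiboTag RNA it was 0 throughout, with the replicate block as well. The cause of these changes was not tested. Null 2, with 213679 UMIs, limits what low genes can show.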
